A study of Rattus norvegicus with 18 samples.

Results

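The genes Ifit1, Ifit2, Ifit3, Irf7, Irf1, Isg15, Bst2, Mx1 and Mx2, which interferon switches on in cells, were followed in the hypothalamus of 18 male Wistar rats. They were chosen by name, as the probes of the array whose transcript accession belongs to one of these rat genes. This gave 9 probes, 1 for each of the 9 genes, among 16665 named genes with a probe. The rats were 5 weeks old at the start and 9 weeks old when the tissue was taken. The 6 control rats had neither restraint nor a running wheel. The 6 stress rats were restrained 5 days a week for 3 weeks, each time for 1 to 1.5 h. The 6 stress rats with exercise had the same restraint and ran at will in a wheel for 4 weeks, of which 1 preceded the restraint. No group exercised without stress, so exercise was seen only on top of restraint. RNA of each rat was labelled with Cy3 and read on an Agilent array of its own, so a replicate is a rat.

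Cells release interferons when sensors in the cytosol or in endosomes meet foreign or misplaced nucleic acid. Interferons bind receptors on the same or neighbouring cells, and JAK kinases there start a signal that reaches the nucleus. The signal of type I interferons ends at the interferon-stimulated response element (ISRE), and that of interferon gamma chiefly at the gamma-activated site (GAS). Neurons, glia and vessel cells of the brain all carry these receptors, and microglia keep a low basal signal of this kind. In whole hypothalamus, fewer cells of a type and less RNA per cell cannot be told apart.

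The promoters shown are those of the listed genes in which the core of the ISRE was found by its letters. They are the 250 bases before the start of the gene, on the gene's own strand, from RefSeq on rat build GRCr8. Of the 9 genes, 5 had an entry (Irf7, Irf1, Ifit3, Bst2 and Mx1), while Ifit1, Ifit2, Isg15 and Mx2 had none. Capitals mark the ISRE core, which is GAAA, any 2 bases and GAAA again, searched on both strands. In Irf7 (chr1:205800024-205800273, minus strand) and Ifit3 (chr1:241527076-241527325, plus strand) the core lies on the opposite strand. In Bst2 (chr16:18254968-18255217, minus strand) a pair of cores overlap and fill 16 bases.
Irf7: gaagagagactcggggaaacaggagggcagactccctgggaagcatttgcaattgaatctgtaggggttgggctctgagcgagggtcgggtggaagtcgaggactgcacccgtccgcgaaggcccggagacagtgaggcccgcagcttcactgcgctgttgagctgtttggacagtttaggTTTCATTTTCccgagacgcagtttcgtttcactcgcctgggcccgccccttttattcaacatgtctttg
Ifit3: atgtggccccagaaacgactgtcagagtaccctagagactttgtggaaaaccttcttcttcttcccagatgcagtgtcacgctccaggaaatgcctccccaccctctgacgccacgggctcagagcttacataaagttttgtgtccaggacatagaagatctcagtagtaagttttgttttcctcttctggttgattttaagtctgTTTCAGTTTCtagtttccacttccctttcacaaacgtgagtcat
Bst2: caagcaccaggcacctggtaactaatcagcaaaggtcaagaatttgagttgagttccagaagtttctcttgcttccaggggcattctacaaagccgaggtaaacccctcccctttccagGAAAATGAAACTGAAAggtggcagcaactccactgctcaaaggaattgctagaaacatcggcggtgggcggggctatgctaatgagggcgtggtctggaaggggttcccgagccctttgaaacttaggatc
The first base of the core lies 69 bases before the start in Irf7 and 44 in Ifit3. In Bst2 the overlapping cores begin 131 and 125 bases before it. Of 33469 rat promoters of this length, 3.41% held the ISRE core. The GAS core, which is TTC, any 3 bases and GAA, was held by 7.67% of them. It was found 142 bases before the start of Irf1, as TTCCCCGAA, and 137 bases before that of Bst2, as TTCCAGGAA, where it overlaps the first ISRE core. Neither core was found in the Mx1 window. A match in letters is a description and not a measured binding site.

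Levels are given as log2 of the background-subtracted signal minus the 75th percentile of the same array, so 0 is that percentile and a difference of 1 is a doubling. Levels of different probes are not compared with each other, because probes differ in how well they bind. A probe was tested where 5 or more of the 6 arrays of some group read it well above background, and 8 of the 9 genes passed. Ifit1, an RNA-binding protein that blocks translation of viral messages, was the exception. Its probe was well above background on 0 of 18 arrays, at -10.12 to -9.08, so Ifit1 has only an upper bound and no fold change. Of 10 markers of hypothalamic neurons, 9 passed the filter and 8 were well above background on all 18 arrays. Of 16665 named genes with a probe, 13045 had one that passed. All 5 markers of choroid plexus and all 6 of fibroblasts and meninges passed too. The count therefore does not show how cleanly the tissue was cut.

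The 18 arrays lay on 5 slides, and the layout limits every comparison. Slides 1 to 3 held all control rats and stress rats 1 to 4. Slides 4 and 5 held stress rats 5 and 6 and all stress rats with exercise. The first principal component over all tested probes took 32.1% of the variance. It placed the 10 arrays of slides 1 to 3 at 20.96 to 33.7 and the 8 arrays of slides 4 and 5 at -40.66 to -24.84, stress rats 5 and 6 with the latter. Control rats lay on slides 1 and 2, stress rats on slides 3 and 4 and exercised rats on slides 4 and 5. Control rats therefore share no slide with exercised rats or with stress rats, and only slide 4 held more than 1 group. Slide set and group can be parted only through the stress rats. Every difference between stress and control rats is also one between slides, with or without the slide set in the model. The other split is the scan day: slides 2 and 4 were read on day 1 and slides 1, 3 and 5 on day 2. Where adding the slide set to the model ends a call among the interferon genes or the markers, this is said.

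Irf7 and Irf1 are the transcription factors of the group. IRF7 is itself made in answer to interferon and switches on the interferon alpha genes, closing a loop, while IRF1 answers strongly to interferon gamma. The Irf7 level ran from -3.12 over a median of -3.04 to -2.86 in control rats. In stress rats it ran from -3.23 over -2.78 to -2.11, and in stress rats with exercise from -3.36 over -3.03 to -2.92. Stress rats 2, 3, 5 and 6 stood above every control and every exercised rat, and stress rats 1 and 4 did not. The stress group mean was 0.31 above control (SE 0.15) and the exercised group mean 0.35 below stress (SE 0.15), all on the log2 scale. Neither passed, with adjusted p = 0.426 and 0.159 in the limma fit over all probes. Irf1 held the narrowest spread of the 8 genes, with an SD of 0.09 over the 18 arrays. Its level lay between -1.64 and -1.30 in all rats, and the groups overlapped in every comparison.

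Isg15 encodes a ubiquitin-like protein that cells attach to other proteins during an interferon response, and it is among the genes that answer most strongly. Its level ran from -2.67 over a median of -2.56 to -2.12 in control rats. In stress rats it ran from -2.70 over -1.93 to -1.24, and in stress rats with exercise from -2.76 over -2.31 to -1.998. The 4 stress rats above every control rat were again 2, 3, 5 and 6, at -2.02, -1.24, -1.84 and -1.75. Stress rat 1, at -2.56, lay among the controls, and stress rat 4, at -2.70, just below the lowest of them. Its mean was -2.02 ± 0.54 (SD, n = 6), against -2.50 ± 0.19 (SD, n = 6) in control rats and -2.33 ± 0.25 (SD, n = 6) in exercised rats. The difference of 0.48 (SE 0.20, 1.39-fold) between stress and control rats did not pass in limma (adjusted p = 0.387), nor did that of -0.32 (SE 0.20, adjusted p = 0.344) between exercised and stress rats. Without stress rat 3, the first was 0.32 (SE 0.17, adjusted p = 0.410).

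Ifit2 and Ifit3 lie next to each other on chromosome 1 with no gene between them, and both encode proteins that bind RNA or partner proteins in the antiviral state. The Ifit2 level ran from -5.34 over a median of -5.23 to -4.83 in control rats, from -5.94 over -5.38 to -4.65 in stress rats and from -5.60 over -5.47 to -5.19 in exercised rats. The lowest and the highest of the 18 values both belonged to stress rats, 4 and 3. Ifit3 varied most of the 8 genes, with an SD of 0.64 over the 18 arrays. It ran from -7.54 over -6.59 to -5.37 in control rats, from -7.01 over -6.55 to -5.12 in stress rats and from -7.26 over -6.90 to -5.98 in exercised rats. The 3 ranges overlap widely, and control rat 1 came next to stress rat 3 at the top. Ifit3 sat close to the detection limit, well above background on 17 of 18 arrays, with stress rat 4 the exception. Neither gene passed in any comparison: the lowest adjusted p in limma was 0.289, for an Ifit2 difference of -0.23 (SE 0.15) between exercised and control rats.

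Bst2, or tetherin, is a membrane protein that holds budding viruses on the cell surface, and it was the gene whose groups separated. Its level ran from -2.59 over a median of -2.53 to -2.41 in control rats, from -2.47 over -2.24 to -1.93 in stress rats and from -2.39 over -2.28 to -2.03 in exercised rats. Every exercised rat lay above every control rat, and so did 5 of the 6 stress rats, all but stress rat 4 at -2.47. The mean was -2.52 ± 0.07 (SD, n = 6) in control rats, -2.24 ± 0.18 (SD, n = 6) in stress rats and -2.22 ± 0.16 (SD, n = 6) in exercised rats. Bst2 was higher in exercised than in control rats by 0.29 (SE 0.08, 1.23-fold), and this passed in limma with an adjusted p of 0.0135. Stress rats lay 0.28 (SE 0.08) above control rats, a difference of nearly the same size that did not pass (adjusted p = 0.288). Between exercised and stress rats the difference was 0.02 (SE 0.08), and 2 SE either side gave -0.14 to 0.18.

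The layout bears on the Bst2 call. By slide, its mean was -2.44 and -2.56 on slides 1 and 2, which held control rats alone, and -2.22, -2.23 and -2.25 on slides 3, 4 and 5, which held none. The 4 stress rats that shared the slide set of the controls averaged -2.22, and the 2 stress rats on the other slide set -2.29. Once the slide set was added to the model, the difference between exercised and control rats was 0.36 (SE 0.15), and it no longer passed (adjusted p = 0.467). In that model only 7 of all 31283 probes passed. The Bst2 difference also missed the threshold with the slide as a random block (0.30, adjusted p = 0.183), without scaling of the arrays (0.26, adjusted p = 0.121) and within scan day 2 (0.18, adjusted p = 0.417). Within scan day 1 it passed (0.39, adjusted p = 0.0234). The difference was above 0 in each of these.

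Mx1 and Mx2, dynamin-like GTPases that trap viral particles, lie on chromosome 11 with 1 gene between them. The Mx1 level ran from -2.12 over a median of -1.98 to -1.71 in control rats, from -2.02 over -1.99 to -1.80 in stress rats and from -2.40 over -2.02 to -1.85 in exercised rats. The Mx2 level ran from 3.42 over 3.51 to 3.57 in control rats, from 3.41 over 3.49 to 3.66 in stress rats and from 3.16 over 3.40 to 3.53 in exercised rats. For both genes the lowest 2 values of all 18 belonged to exercised rats 1 and 2, which shared a slide with stress rats 5 and 6. Stress and control rats differed by -0.01 for Mx1 (SE 0.09) and by -0.00 for Mx2 (SE 0.06), and 2 SE either side gave -0.19 to 0.18 and -0.12 to 0.11. Between exercised and control rats Mx2 differed by -0.15 (SE 0.06, adjusted p = 0.0717 in limma). This passed under some other settings: with quantile normalization (-0.16), without scaling (-0.18), with scan day as a block (-0.18) and within scan day 1 (-0.31, adjusted p = 0.0180). On that day the exercised rats were 1 and 2, and Mx1 passed there too (-0.44, adjusted p = 0.0369). On scan day 2, with exercised rats 3 to 6, the differences were -0.06 for Mx2 and 0.00 for Mx1.

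**Figure D1:**
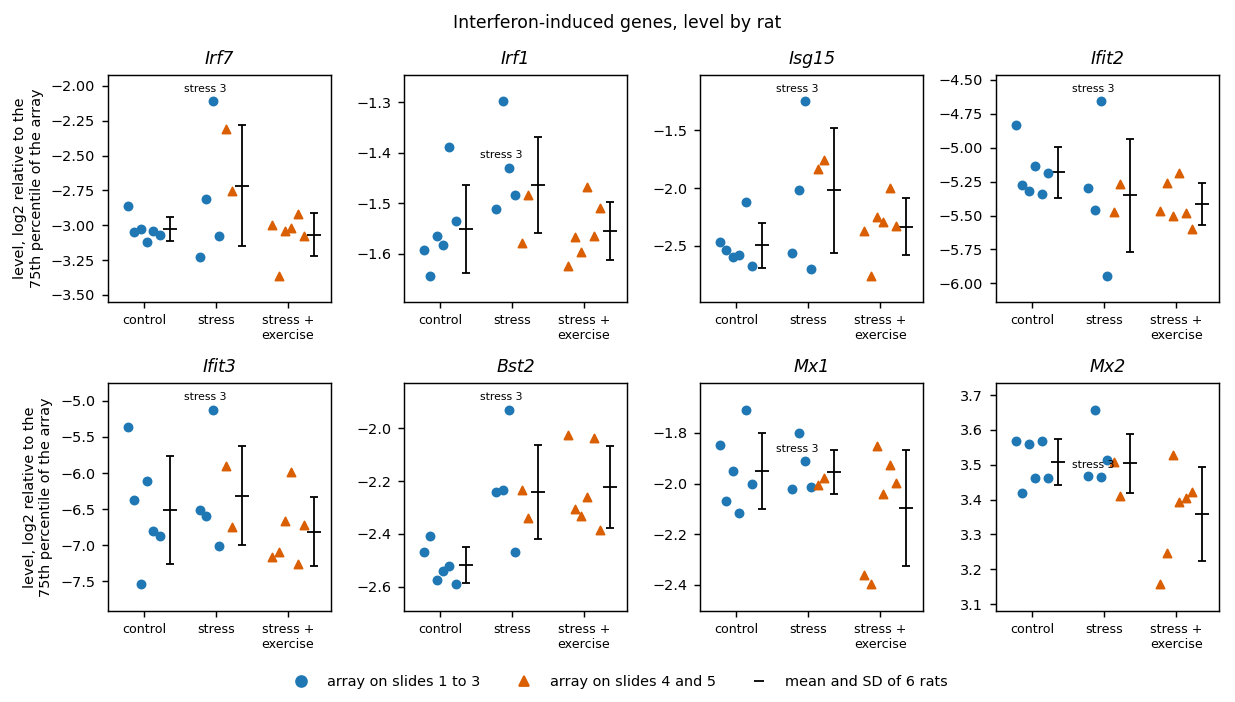
Level of the 8 measured interferon-induced genes in each rat (log2 relative to the 75th percentile of the array, own axis for each gene), with the mean and SD of 6 rats beside each group. Circles are arrays on slides 1 to 3 and triangles arrays on slides 4 and 5. Stress rat 3 is labelled and is the highest point for Irf7, Isg15, Ifit2, Ifit3 and Bst2, and for Bst2 the exercised rats all lie above the control rats.

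Counted together, 0 of the 8 genes passed between stress and control rats, where 0.0% of all 31283 tested probes passed. That comparison had 3694 probes, or 11.8%, at an unadjusted p under 0.05, among them Isg15 and Bst2. Between exercised and stress rats 0 of 8 passed, against 3.75% of all probes (1.17% higher and 2.58% lower). In that comparison 7 of 8 differences were below 0 and their median was -0.14, beside a median of 0.02 over all probes. Some of the 8 genes varied together across rats, so these are not 8 separate directions. The stress group also held stress rat 3, the highest rat for 5 of the 8. Between exercised and control rats 1 of 8 passed, Bst2, against 26.1% of all probes, so the members were called no more often than probes at large. Of all probes, 11% were called higher and 15.1% lower, and 6.35% had exercised rats all above control rats, as Bst2 did. The split of the 8152 calls was 42.1% higher, but 13.97% without scaling and 55.3% with quantile normalization. The stress and exercised groups serve in more than 1 comparison, so the 3 counts are not independent of each other.

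**Figure D2:**
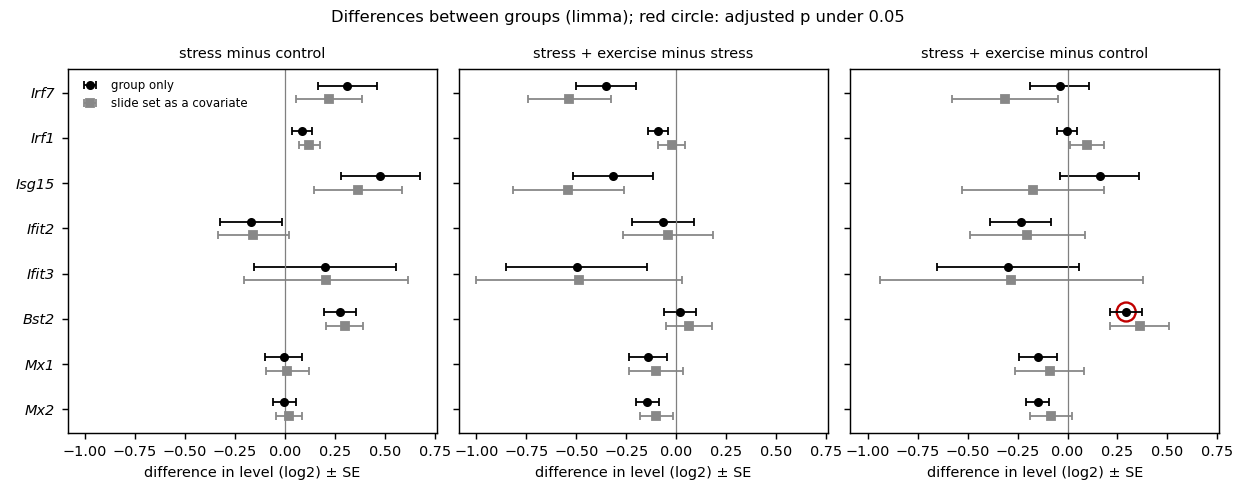
Difference between groups for each gene (log2, point and SE), with the group alone in the model in black and the slide set added as a covariate in grey. Bst2 between exercised and control rats, circled in red at 0.29, is the 1 difference that passed, and its bar widens from an SE of 0.08 to one of 0.15 once the slide set is added.

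Reading across genes rather than groups, 1 animal stood out. Stress rat 3 had the highest of the 18 values for 5 of the 8 genes: Isg15, Irf7, Bst2, Ifit2 and Ifit3. It was the third highest for Irf1, the fifth for Mx1 and the ninth for Mx2. Of 12974 genes measured in all rats, 6.27% had their highest value in stress rat 3. This array was singled out after the values were seen. Relative to the control mean, its level was 1.39 higher for Ifit3, 1.25 for Isg15, 0.92 for Irf7, 0.59 for Bst2 and 0.53 for Ifit2. Stress rat 5 followed for Irf7, at 0.72 above the control mean, and stress rat 6 for Isg15, at 0.74. At the other end stress rat 4, from the same slide as stress rat 3, had the lowest Ifit2 value and lay 0.20 below the control mean for Isg15.

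**Figure D3:**
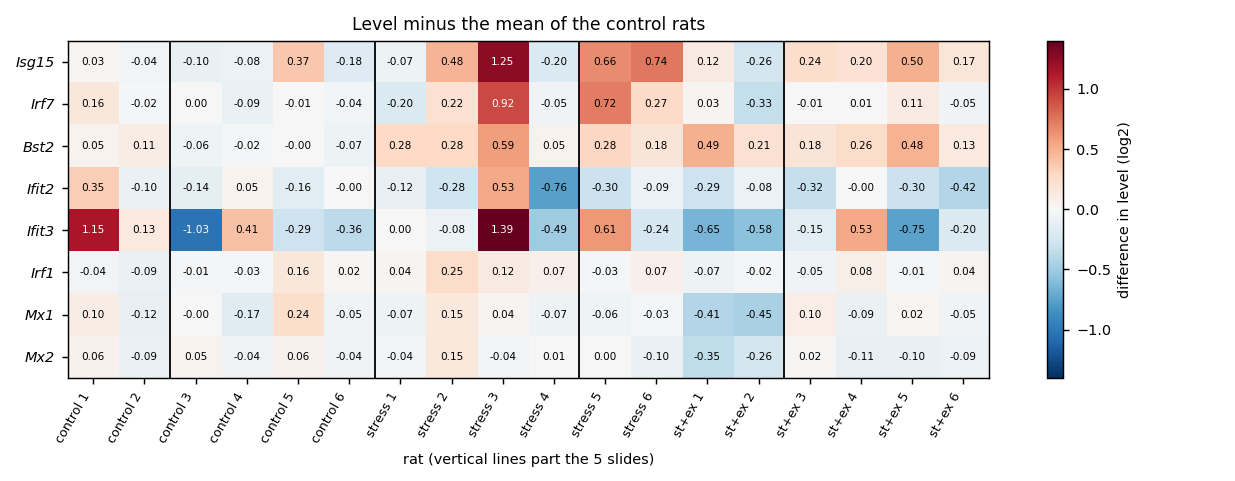
Level of each gene in each rat minus the mean of the 6 control rats (log2, red above and blue below), with vertical lines between the 5 slides. The column of stress rat 3 reaches 1.39 for Ifit3 and 1.25 for Isg15, stress rats 5 and 6 are red for Isg15 at 0.66 and 0.74, and exercised rats 1 and 2 are blue for Mx1 at -0.41 and -0.45.

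Markers of other cells were set beside this array. The mean over 10 microglial markers, all well above background on every array, was -0.63 in stress rat 3, the 16th highest of the 18 rats. It ran from -0.61 to -0.48 in control rats, -0.73 to -0.48 in stress rats and -0.64 to -0.51 in exercised rats. Of 13 markers of blood leukocytes, 6 passed the filter and 2 were well above background on all arrays. Cd3e and Cd8a of T cells, Ms4a1 of B cells, Ncr1 of natural killer cells and S100a8 and Mpo of neutrophils were among those that did not pass it. The mean of the 6 was -6.34 in stress rat 3, the eighth highest, in a span from -7.05 to -6.08 in control rats, -7.26 to -5.81 in stress rats and -6.85 to -6.01 in exercised rats. Stress rat 3 was thus not the highest rat for either list. Between exercised and control rats, the comparison in which Bst2 passed, 26.5% of all genes were called (15.3% higher and 11.2% lower). There 1 of 10 microglial markers was higher (Tmem119, 0.27) and 2 were lower (Cx3cr1, -0.60, and Itgam, -0.40). Of 7 endothelial markers Esam was higher (0.26), of 4 ependymal markers Drc12 was lower (-0.53), and of 4 erythrocyte markers Ahsp was lower (-0.37). None of these 6 passed once the slide set was added, where 7 of all 31283 probes did, and Cx3cr1 then turned sign (0.19). Their part in the Bst2 difference was not tested.

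Co-variation was tested between the 8 measured genes, which gives 28 pairs. The mean of each slide set was first taken off each gene, and arrays were permuted within slide sets, with p adjusted over the 28 pairs. The coefficient was above 0 for 23 of 28 pairs, with a median Pearson r of 0.35. Of these, 9 pairs reached an unadjusted permutation p under 0.05, and 2 passed after adjustment. Irf7 and Isg15 moved together with a Pearson r of 0.88 over 18 rats (permutation p = 8e-05, adjusted p = 0.0020) and a Spearman rho of 0.82 (permutation p = 0.00013, adjusted p = 0.0018). Without the 2 rats farthest from the Irf7 median, stress rats 3 and 5, r was 0.80. Mx1 and Mx2 moved together with an r of 0.86 (permutation p = 0.00014, adjusted p = 0.0020) and a rho of 0.85 (permutation p = 7e-05, adjusted p = 0.0018). Without exercised rats 1 and 2, r was 0.76. Isg15 and Mx1 passed by rank (rho = 0.71, permutation p = 0.00136, adjusted p = 0.0127), with an r of 0.53 (permutation p = 0.0185, adjusted p = 0.0938). Without stress rat 3 that r was 0.72 and passed (permutation adjusted p = 0.0208).

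The 2 pairs were looked at within each slide set. Over the 10 rats of slides 1 to 3, Irf7 and Isg15 had an r of 0.91 (permutation p = 0.00338, adjusted p = 0.0792), but 0.24 once stress rats 2 and 3 were left out, so the relation there rests on those rats. Over the 8 rats of slides 4 and 5 it was 0.85 (exact permutation p = 0.00826, adjusted p = 0.116) and 0.94 without stress rat 5 and exercised rat 2. Mx1 and Mx2 had an r of 0.77 on slides 1 to 3 (permutation p = 0.00887, adjusted p = 0.0792) and 0.67 without control rat 5 and stress rat 2. On slides 4 and 5 their r was 0.91 (exact permutation p = 0.00719, adjusted p = 0.116) and 0.52 without exercised rats 1 and 2. Within a slide set 0 of 28 pairs passed the adjustment, with 8 and 2 pairs at an unadjusted p under 0.05. Ifit2 and Ifit3, the adjoining genes, had an r of 0.65 over 18 rats (permutation p = 0.00867, adjusted p = 0.0607). With stress rats 3 and 4, the farthest for Ifit2, left out that coefficient was 0.53, and without control rat 1 and stress rat 3, the farthest for Ifit3, it was 0.35. Bst2 ran with Isg15 (r = 0.62, permutation p = 0.0201, adjusted p = 0.0938) but r was 0.38 without stress rats 3 and 6. On slides 1 to 3 that pair had an r of 0.82, and of -0.00 without stress rats 2 and 3.

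**Figure D4:**
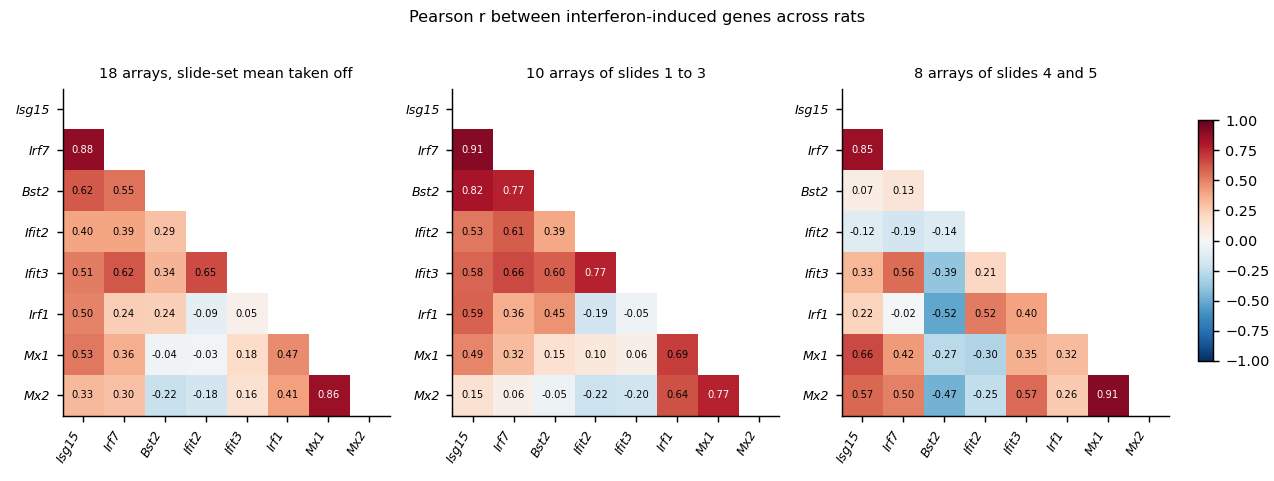
Pearson r for the 28 pairs of genes across rats, over 18 arrays after the mean of each slide set was taken off (left) and within the 10 arrays of slides 1 to 3 (middle) and the 8 of slides 4 and 5 (right). Irf7 with Isg15 (0.88, 0.91 and 0.85) and Mx1 with Mx2 (0.86, 0.77 and 0.91) are dark in all 3, while Bst2 with Isg15 reads 0.82 on slides 1 to 3, which rests on stress rats 2 and 3, and 0.07 on slides 4 and 5.

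The genes whose pattern was most like the mean of the 8 were then sought among 12966 named genes, by Pearson r over the 18 rats with the slide-set mean taken off. These were RT1-T24-3, a class I histocompatibility gene (r = 0.86), Oas1a, a sensor of double-stranded RNA that starts RNA decay (0.86), Parp14, an ADP-ribosyl transferase (0.86), Usp18, which takes ISG15 off its targets and damps the receptor (0.85), and Chst11, a chondroitin sulfotransferase (0.81). All 5 had their highest value in stress rat 3, which follows from the choice, since the mean of the 8 was itself highest there. For Oas1a that value was -4.13, with stress rats 5 and 6 at -4.67 and -4.63 and the control rats between -5.34 and -4.88. For Usp18 it was -3.85, with the control rats between -5.36 and -4.88. None of the 5 passed in limma between any groups, with a lowest adjusted p of 0.190. Of 79 other interferon pathway genes measured, 11 were among the 100 most alike, Oasl2 (r = 0.81) and Rsad2 (0.77) next after those named. The median r of these 79 was 0.19, beside 0.05 over all genes.

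The wider pathway was read from a list of 109 genes, of which 90 had a named probe and 79 a tested one. Where a gene had several probes, the brightest tested one stood for it. Between stress and control rats 0 of 79 passed, against 0 of 13045 genes, and 15 had an unadjusted p under 0.05, as did 1489 of all genes. The smallest p belonged upward to Mavs (0.13) and Trex1 (0.14) and downward to Ifna4 (-0.40) and Oas2 (-0.39), with adjusted p from 0.287 to 0.346 in limma. Between exercised and stress rats 2 of 79 were lower and 0 higher, against 1.78% lower and 1.63% higher among all genes. Usp25, a ubiquitin protease listed among the inhibitors, was lower by -0.38 (SE 0.09, adjusted p = 0.0390 in limma), and Ube2l6, the enzyme that conjugates ISG15, by -0.25 (SE 0.06, adjusted p = 0.0405). Neither was called once the slide set was in the model, where 5 of all 31283 probes were. The Usp25 level was -2.93 in stress rat 5 and -2.96 in stress rat 6, within or beside the exercised rats at -3.16 to -2.93, while the other stress rats lay at -2.66 or above.

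Between exercised and control rats 12 of the 79 were higher and 9 lower, or 21 in all, against 26.5% of all genes (15.3% higher and 11.2% lower). The median difference of the list was 0.03, as it was over all genes. Of the ligands, 3 were measured and Ifna4, an interferon alpha, was lower by -0.79 (SE 0.13, adjusted p = 0.0008). Interferon alpha genes are near-identical copies, so the probe may read several. Of 13 receptors and signal carriers, Irf3 (0.38), Stat2 (0.14), Jak1 (0.13) and Il10rb (0.12) were higher. Of 11 sensors and adaptors, Mavs (0.15) and Sting1 (0.14), the adaptors for RNA and DNA sensing, were higher, and Tlr9, which reads DNA in endosomes, was lower (-0.67).

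Among 45 effectors 4 were higher: Psmb8 (0.24) and Tap2 (0.23) of antigen processing, the chromatin factor Daxx (0.17) and the RNA editor Adar (0.16). Another 4 were lower: Oas2 (-0.67), Sp100 of nuclear bodies (-0.58), the GTPase Igtp (-0.51) and Ube2l6 (-0.23). Among 7 inhibitors, the DNase Trex1 (0.23) and the phosphatase Ptpn6 (0.16) were higher, and Usp25 (-0.57) and Socs3 (-0.37), which blocks JAK kinases, were lower. Second probes of Igtp (0.40), Usp25 (0.16) and Sting1 (-0.26) went the other way without passing, while those of Tap2 (0.38) and Socs3 (-0.56) passed in the same direction.

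The 21 calls were also read with the slide set in view, since exercised and control rats share no slide. With the slide set in the limma model 0 of 21 passed, with a lowest adjusted p of 0.423. Only 7 of all 31283 probes passed in that model, so the loss of these calls is not particular to the list. The sign turned for Adar, Jak1, Oas2 and Sp100. For 6 of the 21, Ifna4, Jak1, Oas2, Igtp, Sp100 and Usp25, the arrays of slides 1 to 3 and of slides 4 and 5 did not overlap at all. Oas2, for instance, lay between -5.28 and -4.91 on slides 1 to 3 and between -5.94 and -5.58 on slides 4 and 5, with stress rats 5 and 6 at -5.87 and -5.93. These 6 were also the only genes of the 79 on the list parted in this way, called or not. Among all 12974 genes 1300 were, and among the 8 interferon-induced genes 0 were. Without scaling of the arrays 7 genes of the list passed, all of them lower, and none of the 12 higher calls held. With quantile normalization 19 were higher and 9 lower. All 21 kept their sign under both.

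**Figure D5:**
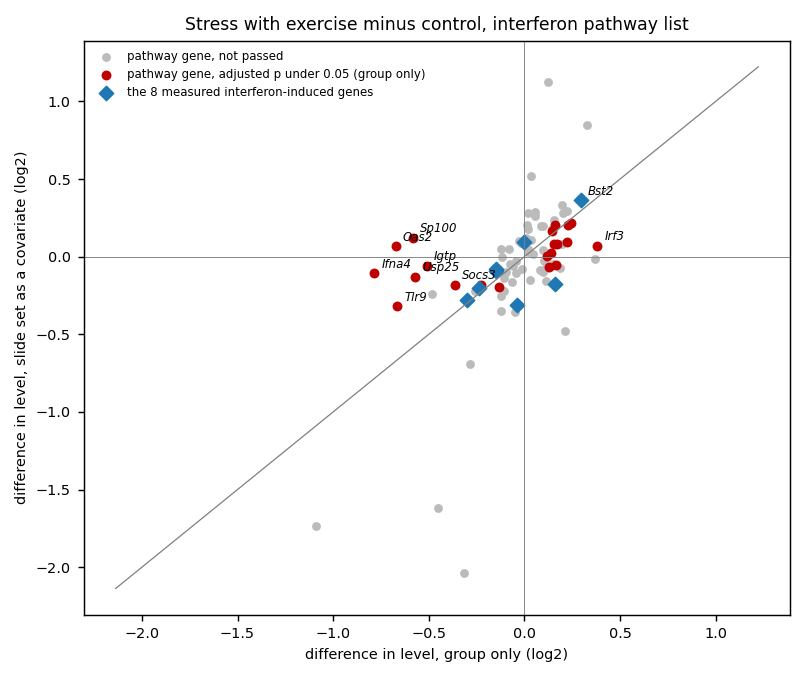
Difference between exercised and control rats with the group alone in the model (horizontal) and with the slide set added (vertical), both log2, for 79 interferon pathway genes and the 8 interferon-induced genes. The grey diagonal marks equal values. The red genes passed with the group alone, and Oas2 goes from -0.67 to 0.07 and Ifna4 from -0.79 to -0.11, while Bst2 goes from 0.29 to 0.36.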

How the data were processed

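Hypothalamic RNA of 18 rats was read on 18 1-colour arrays, 1 per rat, with 62976 spots of which 58717 were not controls (45598 probes). Per the file headers, the authors extracted each deposited intensity with Agilent Feature Extraction 12.1.0.3 (the submitters' processing notes name 9.1), background-subtracted. The array design was annotated on rn4. The authors' deposited intensity values in the series matrix were the same signals times a constant of 1.02 to 1.24 for each array. Outlier spots (297 to 580 an array) were left out, log2 was taken, the 75th percentile over non-control spots was subtracted, and spots of a probe were averaged. Each array read 63.6% to 77.7% of its probes well above background, and no spot was saturated. The number of rats and the layout of the slides limit the comparisons.

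Accessions were named through the RefSeq rat table (GRCr8): 21220 probes had 1 symbol, 0 several and 24378 none. limma 3.58.1 in R 4.3.3 fitted group over all 18 arrays, and p was adjusted by Benjamini-Hochberg over 31283 probes, with calls at 0.05. The fit was tested on simulated data. Correlations used 100000 permutations, or all 40320 arrangements for 8 arrays. Members, lists and tests were chosen with earlier results of these data known. All 9 members are named, and of the pathway list those called, otherwise the 2 per direction with the smallest p, and the 5 genes most alike. Background correction (normexp), scaling, filters, slide, scan day and left-out rats were varied. Some single genes and markers that enter the counts are not reported here. Replicate numbers did not pair rats: same-numbered correlations were -0.246 to 0.188.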

Additional observations from a re-analysis of the deposited data

Results flagged for a closer look

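Within each group of 6 rats, the gap between an extreme rat and its neighbour was set against Dixon's critical value (0.625 of the range). Over 99 groups checked, 11 were marked. Chance alone marks about 1 in 20 of independent groups, but some of these genes vary together across rats. Others, such as Chst11, were picked for likeness to a mean that was highest in stress rat 3. The 11 are therefore not weighed against chance. Of the interferon-induced genes, Irf7 was high in control rat 1 (-2.864) and low in exercised rat 2 (-3.362), and Isg15 was high in control rat 5 (-2.123). The gaps were 0.631, 0.633 and 0.630 of the range, just past the critical value. Stress rat 3 was set apart for Chst11 (-5.365) and Ube2l6 (-2.689). Control rat 5 was set apart for Oas1a (-4.877), the same rat as for Isg15. Control rat 3 was high for Igtp (5.517) and low for Oas2 (-5.243). Exercised rat 2 was low for Oas2 (-5.937) and Psmb8 (-4.086), as for Irf7. Stress rat 2 was high for Ptpn6 (-1.975), where the gap was 0.777 of the range.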

How the results depend on the processing

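The limits lie in the layout and in 1 rat. Slide set and group can be parted only through 6 stress rats. The scan day crosses both, but within 1 day each group lay on a single slide set. On scan day 1 the control rats lay on slides 1 to 3 and the other groups on slides 4 and 5. On scan day 2 the control and stress rats lay on slides 1 to 3 and the exercised rats on slides 4 and 5. For the interferon-induced genes, 0 of 8 were called between stress and control rats and between exercised and stress rats under every alternative run. Between exercised and control rats the count of 1 became 2 with quantile normalization and with scan day as a block, 3 within scan day 1, and 0 within scan day 2, with the slide as a random block and with slide set added. Leaving out 1 rat at a time gave 1 to 2, the latter without exercised rat 3, when Mx2 passed too (-0.18). Of the single differences, 795 values under alternatives kept their direction where called and their side of the threshold, 6 newly passed and 4, all of Bst2, no longer did. The causes were not tested.

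For the pathway list, stress against control went from 0 to 2 calls with scan day as a block and 8 within scan day 1. On that day these groups lay on different slide sets, as exercised and stress rats did on scan day 2. Exercised against stress went from 2 calls to 1 with normexp, 4 with quantile normalization or the filter on all arrays, 8 with scan day as a block, 13 within scan day 2 and 18 with stress rats 5 and 6 left out, an alternative chosen after seeing the data. It went to 0 with no filter, with only the compared groups, within scan day 1, with the slide as a random block, with slide set added and within slides 4 and 5. Leaving out 1 rat gave 0 to 10, with 10 without stress rat 5 and 10 without stress rat 6. Exercised against control went from 21 to 7 without scaling, 12 within either scan day, 6 with the slide as a random block and 0 with slide set added.

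Over all probes, stress against control went from 0 to 2 with quantile normalization or without stress rats 5 and 6. It went to 467 with scan day as a block, 3747 within scan day 1 and 1 with slide set added. These groups differ in slide set on scan day 1, when the stress rats were 5 and 6 alone. Exercised and stress rats differ in it on scan day 2 and without stress rats 5 and 6. Exercised against stress went from 1173 to 2 without a filter, 0 with only the compared groups, within scan day 1 or with the slide as a random block, 3109 with scan day as a block, 7599 within scan day 2, 5 with slide set added, 3 within slides 4 and 5 and 7794 without stress rats 5 and 6. Leaving out 1 rat gave 1 to 4633, the highest without stress rat 5 and next 4180 without stress rat 6. Exercised against control went from 8152 to 5169 without scaling, 1758 with the slide as a random block and 7 with slide set added.

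With the replicate number as a block, exercised against stress had 2 probes and 0 pathway genes called, and Bst2 stayed called between exercised and control rats (adjusted p = 0.0218 in limma). Its numbers do not pair the rats. Of the pairs of genes, 4 passed with levels as they were and 4 with group and slide-set means taken off (added later), against 2. Irf7 with Isg15 and Mx1 with Mx2 passed under each of the 7 alternatives over the pooled arrays. Without stress rat 3, Irf7 with Isg15 had an r of 0.76 (permutation adjusted p = 0.0115).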

Other observations

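Single rats held isolated highs among pathway genes that the comparisons do not name, picked here after their values were seen. Irgm, a GTPase of the interferon gamma response, was at -1.50 in stress rat 5 and between -5.77 and -4.65 in the 17 others. Oas3, a maker of the second messenger that starts RNA decay, was at -3.33 in stress rat 6 and between -8.15 and -5.86 in the 17 others. Both probes were well above background on those arrays.

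Of the 79 measured pathway genes, 16 had their highest value in stress rat 3, or 20.3%, against 6.27% of all genes. They were Oas1a, Oas1i, Oasl2, Rsad2, Ifi44, Gbp2, Gbp5, Ube2l6, Parp14, Dtx3l, Samhd1, Lgals9, Tap1, Usp18, Tyk2 and Pias1. Stress rat 2 came next with 8 pathway genes and exercised rat 1 with 7, where 5.8% and 7.7% of all genes were highest. Of the 21 pathway genes called between exercised and control rats, 1 was highest in stress rat 3. Ifnb1, interferon beta, ran from -7.89 to -4.46 in control rats, from -9.08 to -7.09 in stress rats and from -9.66 to -7.34 in exercised rats. Stress rat 3 was the 15th highest for it, at -8.09. The dimmest level read well above background was -8.16 on that array and -7.09 on the array of stress rat 4, the ends of the span over all arrays. Ifnb1 thus sat at or near the detection limit in stress and exercised rats, and its rank in stress rat 3 shows little.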
